A study of Mus musculus with 12 samples.

Results

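The genes described are the replication-dependent histone genes of the mouse, taken as every row of both count tables whose symbol carries the older cluster name, Hist1h to Hist4h. The rule used the symbol alone and no measured value, and it found 69 of the 24538 genes. They comprised 6 genes of the linker histone H1, 19 of H2A, 19 of H2B, 12 of H3 and 13 of H4. On GRCm38, 55 of the 69 lie on chromosome 13, 10 on chromosome 3, 3 on chromosome 11 and 1 on chromosome 6. GENCODE annotates 2 of them, Hist1h2al and Hist3h2bb-ps, as pseudogenes. RNA had been sequenced from sorted LSK cells (lineage-negative, Sca-1 and Kit positive marrow cells, among which are the blood-forming stem cells) and from a second sorted population labelled MPP, the usual abbreviation of multipotent progenitor. The marrow came from Tet2 knockout (KO), Tet2 mutant (Mut) and wild-type (WT) mice on a mixed 129/C57/B6 background at 10 weeks of age. For each genotype the marrow of 2 mice was pooled, and each pool gave 2 technical replicate libraries in each population, so that the 12 libraries form 6 groups of 2. All p values therefore reflect technical variation within pools, and variation from mouse to mouse was not measured. The labels give neither the altered residues of Mut nor the deleted part of Tet2 in KO, and the MPP libraries carry the word Lin in their titles.

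Core histones form the octamer that DNA is wound around, and H1 binds the linker between octamers. Replication-dependent histone genes are transcribed chiefly in S phase, when new chromatin has to be packed. Their mRNAs normally end in a stem-loop in place of a poly(A) tail, and the protein Slbp binds this stem-loop to govern processing, translation and decay. Replication-independent variants such as H3f3b are encoded elsewhere, have polyadenylated mRNAs and are made throughout the cell cycle. In bulk RNA, fewer cells in S phase and less histone RNA per cell cannot be told apart. How the RNA was primed is not given in the sources used here, and the level of a stem-loop mRNA depends on it.

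Gene counts per library ran from 9181027 to 23532847, and a count of 0 in a library allows a level of up to 0.135 to 0.317 CPM, the read count relative to library size. Library sizes for CPM were scaled by TMM. The whole-gene count of Tet2 was 29.2 and 31.7 CPM in LSK KO, 43.4 and 44.3 CPM in LSK Mut and 87.3 and 62.7 CPM in LSK WT. In MPP it was 34.9 and 34.9 CPM in KO, 40.1 and 37.4 CPM in Mut and 39.6 and 29.4 CPM in WT, so that the MPP counts do not separate the genotypes, and KO, Mut and WT name the libraries as labelled throughout. The markers of the LSK gate, Ly6a and Kit, summed to 615 to 732 CPM in the LSK libraries and to 187 to 292 CPM in the MPP libraries. The granulocyte-monocyte progenitor genes Mpo, Elane, Prtn3 and Ctsg summed to 1997 to 5921 CPM in LSK and to 44930 to 59390 CPM in MPP. Hbb-bt, Hba-a1 and Hba-a2 were at 0 counts in every library. Both LSK WT libraries differed from the remaining ones. Their number of genes with a count was 12470 and 12614, below the 13333 to 14264 seen elsewhere. Over the members at 1 CPM or more, the median difference between the 2 LSK WT libraries was 0.93 on the log2(CPM + 1) scale, against 0.19 to 0.34 in the other groups. A total of 3 members at 1 CPM or more had 0 counts in exactly 1 LSK WT library, and none did so in another group. Spike-in RNA took 0.0822% to 0.229% of the counts in LSK and 3.16% to 5.15% in MPP, and scaling on it in place of TMM shifted the median log2 difference of all genes between LSK and MPP to 4.66 in KO, 5.88 in Mut and 4.17 in WT. Within LSK it moved that median to 0.51 (KO against WT), 1.10 (Mut against WT) and -0.59 (KO against Mut). Within MPP the same comparisons gave 0.05, -0.59 and 0.65. The spike-in share also differed between technical libraries of the same pool, at 0.139% and 0.0822% in LSK Mut, and values scaled on it carry this spread. Unless stated otherwise, the differences below are on TMM and thus relative to the bulk of genes.

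The stem-loop itself could be read from the annotated transcripts. The histone stem-loop pattern of 16 bases, which runs GG, any 2 bases, CTT, any base, T, any base, AG, any 2 bases and CC, was searched on the sense strand. It occurred in 46 of the 69 members and in 0.413% of 21810 other protein-coding genes of GENCODE M21. The other 23 members lack it in their annotated transcript, among them the H2B genes Hist1h2bc and Hist2h2be, whose values are given below. A total of 8 versions of the 16 bases were found. The most common, in 26 members of H1, H2A, H2B and H3, reads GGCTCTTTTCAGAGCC, while 7 H4 genes share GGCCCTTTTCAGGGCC. These stretches are shown with the 5 bases on either side, stem-loop in capitals, for some members of the results below that have the pattern.
Hist1h1c: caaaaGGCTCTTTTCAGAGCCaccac
Hist1h1e: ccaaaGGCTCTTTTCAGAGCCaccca
Hist1h2ae: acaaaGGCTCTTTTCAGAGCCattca
Hist2h2ac: aaaaaGGCTCTTTTTAGAGCCaccaa
Hist1h4c: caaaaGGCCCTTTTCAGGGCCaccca
Hist1h4d: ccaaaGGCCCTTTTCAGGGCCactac
Hist4h4: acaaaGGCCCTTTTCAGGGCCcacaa
The annotated transcripts of 18 members run on for 300 bases or more past the stem-loop, by 1153 bases in Hist1h1e, 840 in Hist1h1c and 2445 in Hist4h4, and these 18 members carried 47.1% of all histone CPM. Hist2h2ac runs on for 57 bases and Hist1h2ae for 151.

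A total of 61 members matched a promoter entry of RefSeq (GRCm38.p6, from 250 bases before to 50 bases after the start). The letters TATAAA, searched on both strands, stood in 57.4% of these 61 and in 13.6% of all 32851 promoters of the same length. CCAAT, also on both strands, stood in 85.2% against 37.4%: in every one of the H1, H2A, H2B and H3 promoters, and in 3 of 12 H4 promoters. The octamer ATTTGCAT, on either strand, stood in 21.3% against 1.74%, in 7 of 17 H2A and 6 of 16 H2B promoters and in none of H1, H3 or H4. Many H2A and H2B genes lie head to head, with 13 such pairs among the members. The first sequence here, at chr3:96220831-96221130 on the minus strand, covers the starts of both Hist2h2ac and Hist2h2be, with 238 bases between them. The second is the window of Hist1h2ae at chr13:23571171-23571470 on the minus strand, which is shared with Hist1h2bg. The third, the H4 gene Hist1h4c at chr13:23698409-23698708 on the minus strand, is one of the 3 H4 promoters with CCAAT. Capitals mark the 3 motifs on either strand, and a match of letters is a description and not a site of binding.
Hist2h2ac: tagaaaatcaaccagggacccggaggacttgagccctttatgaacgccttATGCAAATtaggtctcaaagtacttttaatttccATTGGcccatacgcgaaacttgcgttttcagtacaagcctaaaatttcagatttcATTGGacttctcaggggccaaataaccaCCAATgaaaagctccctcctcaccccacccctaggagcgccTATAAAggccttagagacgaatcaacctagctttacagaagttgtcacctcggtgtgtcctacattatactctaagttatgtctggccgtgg
Hist1h2ae: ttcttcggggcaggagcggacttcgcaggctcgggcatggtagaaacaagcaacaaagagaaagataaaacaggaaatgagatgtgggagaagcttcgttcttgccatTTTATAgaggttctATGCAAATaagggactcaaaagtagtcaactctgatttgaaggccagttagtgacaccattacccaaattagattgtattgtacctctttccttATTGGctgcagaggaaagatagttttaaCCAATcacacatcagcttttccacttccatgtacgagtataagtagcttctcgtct
Hist1h4c: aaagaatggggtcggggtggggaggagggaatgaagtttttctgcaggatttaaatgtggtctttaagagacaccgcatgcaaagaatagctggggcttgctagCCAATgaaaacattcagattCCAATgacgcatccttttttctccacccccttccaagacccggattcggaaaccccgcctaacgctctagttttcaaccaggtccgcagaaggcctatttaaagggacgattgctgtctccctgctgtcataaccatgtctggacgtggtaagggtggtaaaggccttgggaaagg

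Levels were spread unevenly over the family. Exon lengths include annotated bases past the stem-loop, so values per kilobase depend on the annotation, as in Hist1h1d (3.03 CPM per kb over 7425 bases). Per kilobase of exon, the mean of the 12 libraries was highest in Hist1h4d at 62.2 CPM per kb and Hist1h2ae at 60.2 CPM per kb. Within the other classes the 2 highest were Hist1h1b (44.6) and Hist1h1e (36.6) for H1, Hist1h2bc (41.8) and Hist2h2bb (37.3) for H2B, and Hist1h3i (12.4) and Hist1h3e (10.6) for H3, all in CPM per kb. Hist1h2ak was the second H2A gene at 29.0 CPM per kb and Hist1h4h the second H4 gene at 30.8 CPM per kb. In some of these the LSK WT libraries lay far apart. Hist1h3i measured 3.15 and 4.24 CPM in LSK KO, 2.46 and 3.67 CPM in LSK Mut, and 16.9 and 2.47 CPM in LSK WT, and stayed between 3.20 and 6.55 CPM in MPP. Hist1h1b, an H1 gene of dividing cells, measured 34.4 and 22.0 CPM in LSK KO, 30.003 and 31.2 CPM in LSK Mut, and 18.7 and 50.8 CPM in LSK WT. Hist1h4h ran from 8.72 to 22.6 CPM over all libraries, with its lowest value in an MPP Mut library and its highest in an LSK WT library. Hist1h3e, at 5.49 to 12.9 CPM, was lowest in an LSK WT library and highest in an MPP KO library, and Hist2h2bb, at 5.86 to 22.3 CPM, was lowest in an MPP WT library and highest in an LSK WT library. In CPM without regard to length, Hist1h4d and Hist1h1e together held 22.1% of the family's signal and the top 10 members held 59.8%. The testis-associated genes Hist1h1t, Hist1h2aa and Hist1h2ba had 9, 4 and 4 counts over all 12 libraries.

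A total of 8 members had 0 counts in all libraries: Hist1h2ao, Hist1h2ap, Hist2h2aa1, Hist1h2bq, Hist1h2br, Hist2h3c1, Hist2h3c2 and Hist1h4m. All of them have near-identical copies: of the 150-base windows of their transcripts, at most 40.6% occurred in no other annotated gene. Hist2h2bb and Hist2h3b also have no window of their own, since predicted genes or copies hold the same bases, and yet had 2535 and 489 counts. A read that matches more than 1 gene cannot be assigned with certainty, so the levels of the 33 members below 75% unique windows are uncertain. The 36 members at or above 75% carried 75.5% of the family's CPM. A total of 50 members had counts in all 12 libraries, and 54 passed the filter on low counts in LSK and 56 in MPP and in the model of all 12 libraries.

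**Figure D1:**
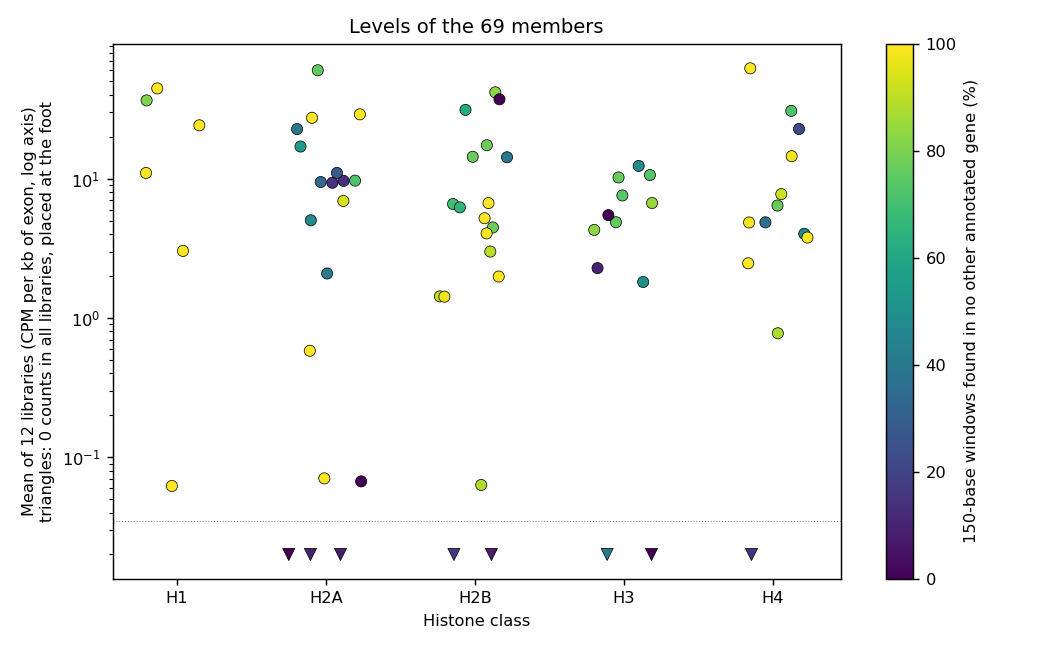
Mean level of each of the 69 members over 12 libraries, in CPM per kilobase of exon on a log axis, by histone class; colour gives the percentage of 150-base windows found in no other annotated gene, and triangles at the foot are the 8 members with 0 counts in all libraries. The 8 triangles are all dark (at most 40.6% unique), while Hist1h4d and Hist1h2ae top the plot at 62.2 and 60.2 CPM per kb.

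Summed over the family, histone mRNA ran from 449 to 772 CPM in a library. The sum was 500 ± 73.1 CPM in LSK KO, 577 ± 63.6 CPM in LSK Mut and 662 ± 81.7 CPM in LSK WT (mean ± SD, n = 2 libraries here and below). It was 752 ± 28.2 CPM in MPP KO, 666 ± 25.2 CPM in MPP Mut and 682 ± 38.3 CPM in MPP WT. Both LSK KO libraries lay below both LSK WT libraries by TMM. With spike-in scaling the LSK libraries of KO and WT overlapped, and only the order of their means turned (2664 in KO and 2546 in WT). Both MPP KO libraries lay above both MPP WT libraries by TMM. Spike-in scaling kept this order of the means (164 in KO and 143 in WT), but the libraries overlapped on that scale. The linker histones summed to 137 ± 29.2 CPM in LSK KO, 147 ± 30.02 CPM in LSK Mut and 224 ± 46.8 CPM in LSK WT. Spike-in scaling turned the order of the Mut and WT means (1230 in Mut and 865 in WT), with the Mut and WT libraries overlapping on that scale. In MPP the linker histones summed to 190 ± 4.67 CPM in KO, 148 ± 1.96 CPM in Mut and 187 ± 24.97 CPM in WT. H3 was the smallest class throughout, at 4.87% to 9.04% of the family's CPM in a library.

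H2B did not follow the total. Its 19 genes summed to 115 and 98.9 CPM in LSK KO, 151 and 149 CPM in LSK Mut, and 111 and 97.6 CPM in LSK WT. In MPP they summed to 169 and 178 CPM in KO, 193 and 180 CPM in Mut, and 122 and 123 CPM in WT. Both Mut libraries thus lay above both WT libraries in each population, and both KO libraries did so in MPP. With spike-in scaling the MPP means of H2B were 37.88 in KO, 25.98 in Mut and 25.59 in WT, so that Mut and WT nearly met on that scale. H2A had the reverse order in MPP, with 139 and 130 CPM in Mut and 167 and 179 CPM in KO, all below the 187 and 189 CPM of WT. A single H2A gene, Hist1h2ae, averaged 40.5 CPM in MPP KO, 38.1 CPM in MPP Mut and 68.6 CPM in MPP WT.

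The ratio of summed H2B to summed H2A within a library does not depend on how libraries are scaled. In MPP it was 1.01 and 0.996 in KO, 1.39 and 1.39 in Mut, and 0.652 and 0.650 in WT, so that the 3 genotypes did not overlap and the libraries of a genotype nearly coincided. In LSK it was 0.953 and 1.01 in KO, 1.402 and 1.11 in Mut, and 0.919 and 0.505 in WT, with the same order and with the WT libraries far apart. The lower LSK WT ratio belongs to the library in which 1 H2A gene, Hist1h2ak, had 639 counts against 30 in the other (50.9 and 3.17 CPM). Restricted to members with at least 75% unique windows (12 of H2B, 6 of H2A), the MPP ratios were 1.17 and 1.13 in KO, 1.82 and 1.68 in Mut, and 0.745 and 0.705 in WT. In LSK, KO and WT then overlapped, at 0.885 and 1.12 in KO, 1.82 and 1.36 in Mut, and 1.09 and 0.580 in WT. The classes also differ in annotated stem-loops. In MPP KO, Mut and WT, H2B members without one summed to means of 84.1, 110.8 and 60.6 CPM (H2A 31.3, 24.8 and 27.5). With under 300 bases past the stem-loop the H2B means were 75.35, 67.1 and 48.8 CPM (H2A 98.6, 69.1 and 125.4). With 300 or more they were 14.1, 8.79 and 13.03 CPM (H2A 42.8, 40.4 and 35.2). The H2B rise from KO to Mut thus lay in members without a stem-loop, and the size of the ratio depends on this mix. In MPP the neutrophil genes S100a8, S100a9, Ltf and Camp summed to 2140 and 2179 CPM in KO. They summed to 1029 and 1015 CPM in Mut and 1995 and 2081 CPM in WT. Of these, Ltf alone lay higher in both Mut libraries than in both WT libraries. The granulocyte-monocyte progenitor genes totalled 44930 and 45690 CPM in MPP KO, 47480 and 45140 CPM in Mut, and 56220 and 59390 CPM in WT. The erythroblast genes totalled 423 and 378 CPM in MPP KO, 302 and 280 CPM in Mut, and 127 and 131 CPM in WT. In MPP Mut against WT, edgeR called Elane, Prtn3, Mpo, S100a8, S100a9 and Camp lower and Slc4a1 higher. The part of all these genes in the histone ratio was not tested.

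**Figure D2:**
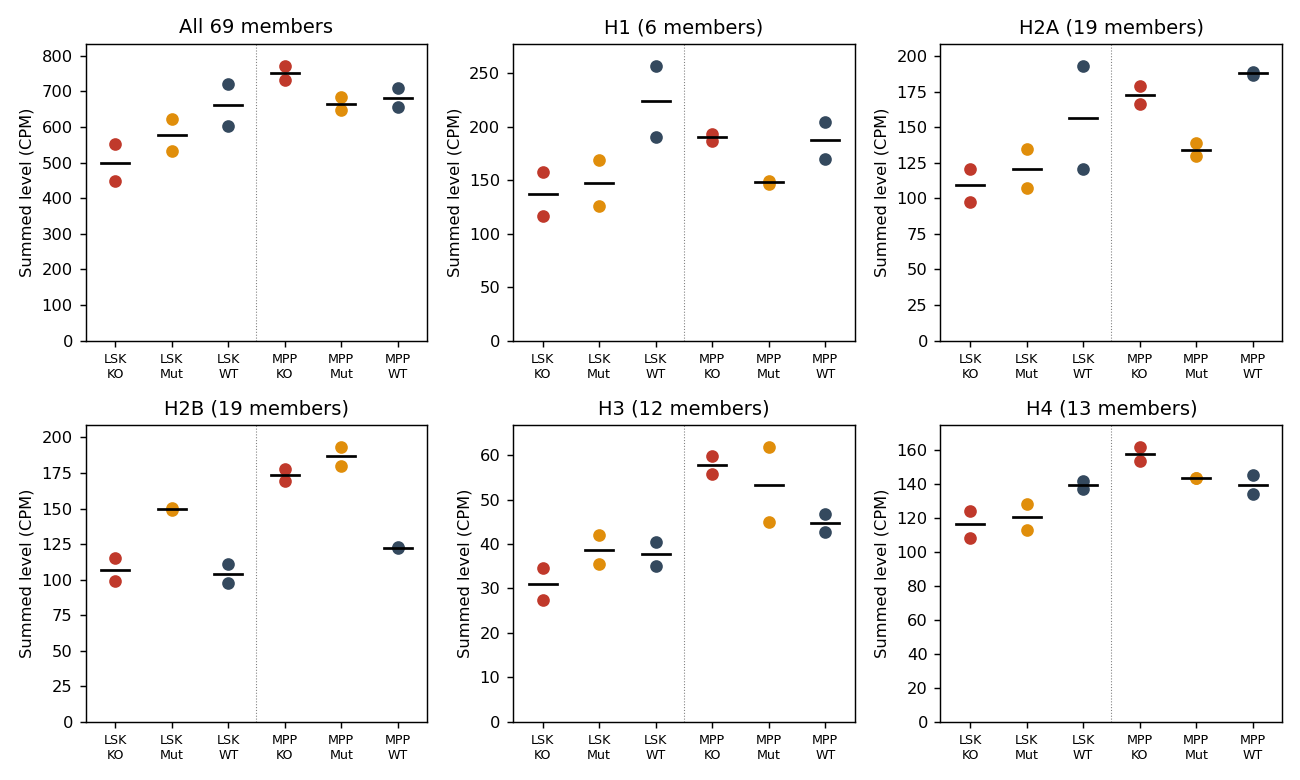
Summed CPM of all 69 members and of each histone class in each library (points) with the mean of 2 libraries (bars), for KO, Mut and WT in LSK and in MPP. The H2B points of Mut (151 and 149 CPM in LSK, 193 and 180 CPM in MPP) lie above those of WT in both populations, while the sums of all 69 members span 449 to 772 CPM.

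**Figure D3:**
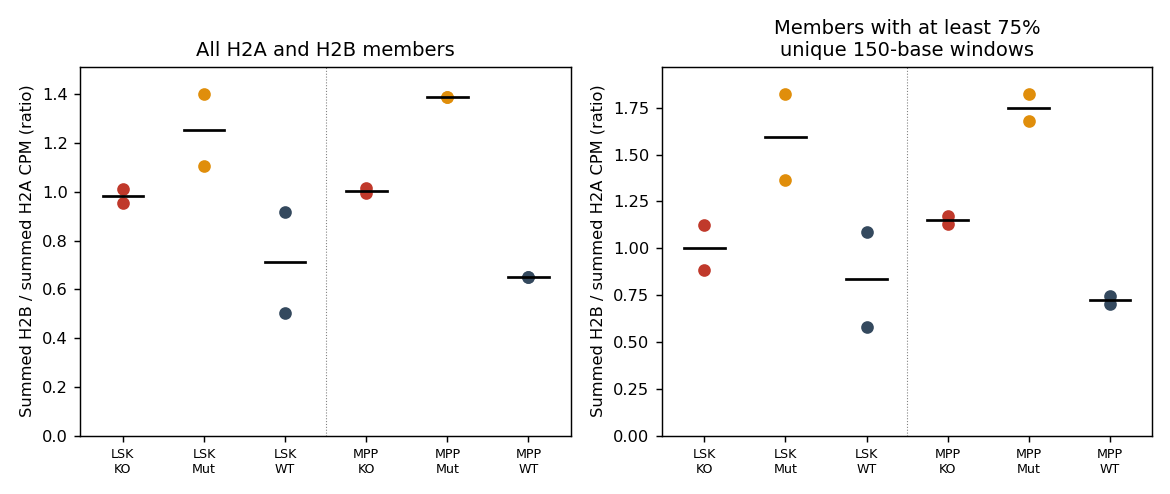
Ratio of summed H2B to summed H2A CPM in each library (points, bars are means of 2), for all members on the left and for members with at least 75% unique 150-base windows on the right. In MPP the ratios of all members are 1.01 and 0.996 in KO, 1.39 and 1.39 in Mut and 0.652 and 0.650 in WT.

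The H2A and H2B genes of a head-to-head pair share the bases between their starts, and 10 pairs had both members tested. For Mut against WT, the log2 difference of the H2B member lay above that of the H2A member in 8 of 10 pairs in MPP (median gap 0.76) and in 8 of 10 in LSK (median gap 1.23). For KO against WT this held in 7 of 10 pairs in MPP and 7 of 10 in LSK, and these comparisons share their WT libraries. The pseudogene Hist3h2bb-ps with Hist3h2a was counted in both LSK comparisons (7.37 and -0.42 for Mut, 6.15 and -1.33 for KO). Hist1h2bp and Hist1h2an nearly tied in LSK Mut (0.270 and 0.267). Of the H2A members, Hist1h2ad, Hist1h2ag, Hist1h2ah, Hist1h2ai, Hist1h2an and Hist3h2a are below 75% unique windows. The pair of Hist2h2ac and Hist2h2be, whose joint window is printed above, was one of the 8 in each population. Hist2h2be measured 7.58 and 8.89 CPM in MPP KO, 22.3 and 19.7 CPM in MPP Mut, and 11.8 and 9.60 CPM in MPP WT. In LSK it measured 5.19 and 10.6 CPM in KO, 15.6 and 11.7 CPM in Mut, and 2.00 and 2.55 CPM in WT. Mut lay above WT without overlap in both populations. Hist2h2ac measured 21.0 and 18.7 CPM in MPP KO, 8.41 and 12.8 CPM in MPP Mut, and 24.9 and 17.9 CPM in MPP WT, so that here Mut lay below WT. The log2 difference of Mut minus WT in MPP was 0.97 ± 0.39 (SE) for Hist2h2be and -1.02 ± 0.39 for Hist2h2ac, with edgeR adjusted p of 0.484 and 0.454. In LSK the differences were 2.56 ± 0.79 (edgeR adjusted p = 0.160) for Hist2h2be and -0.57 ± 0.64 (adjusted p = 0.682) for Hist2h2ac, whose sign spike-in scaling turned (0.66). Neither gene passed the threshold of 0.05 on the adjusted p, and this pair was singled out after its values were seen.

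None of the members passed that threshold in a comparison of genotypes within LSK. As a measure for the counts of members above or below 0, the share of all genes above 0 by TMM ran from 48.7% (MPP KO against WT) to 50.5% (LSK Mut against WT) in the comparisons of genotypes. It was 52.1%, 51.4% and 49.2% for LSK against MPP in KO, Mut and WT, and 54.0% and 53.2% for the interactions of KO and Mut. In LSK KO against WT, edgeR called 0 of 54 members, where 0.0456% of all genes were called, with 5 members at an unadjusted p below 0.05, which 13.8% of all genes reached. The log2 differences of 33 members were negative, and 21 with spike-in scaling (median with TMM -0.34). Both KO libraries lay below both WT libraries in 12 members (22.2%, against 18.0% of all genes). The smallest p belonged to Hist3h2ba, an H2B gene outside the large cluster. It had 18 and 7 counts (0.994 and 0.503 CPM) in LSK KO and 40 and 100 counts (4.22 and 7.97 CPM) in LSK WT, a log2 difference of -3.03 ± 0.92 with an edgeR adjusted p of 0.267, and it was the 1 member called by DESeq2 (adjusted p = 0.0356). Without LSK WT replicate 1, edgeR called 4 members.

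In LSK Mut against WT, edgeR called 0 of 54 members, with 1.28% of all genes called and 4 members at an unadjusted p below 0.05, which 19.1% of all genes reached. The members split evenly by TMM, with 28 above 0 and 26 below and a median of 0.04, while spike-in scaling left 8 below. Both Mut libraries lay above both WT libraries in 15 members (27.8%, against 26.8% of all genes). H2B was set to one side by TMM, with 12 of 16 tested members above 0 and a median of 0.55, while the median was -0.42 in H2A and -0.45 in H1. Beside both comparisons of LSK libraries with WT, the granulocyte-monocyte progenitor genes summed to 4926 and 4654 CPM in LSK KO, 5921 and 5669 CPM in LSK Mut, and 1997 and 2366 CPM in LSK WT, with Mpo called higher in both KO and Mut and Elane in Mut. The neutrophil genes summed to 39.3 and 33.7 CPM in LSK KO, 43.8 and 49.5 CPM in LSK Mut, and 84.2 and 161 CPM in LSK WT. Of the T and NK cell genes, only Nkg7 was at a sizable level, and it was called higher in Mut. Nkg7 measured 394.5 and 399.9 CPM in LSK KO, 429.9 and 419.3 CPM in LSK Mut, and 234.5 and 270.1 CPM in LSK WT. In LSK, Cd3e, Cd3g and Klrd1 reached at most 0.884, 0.432 and 4.37 CPM. The part of all these genes in the histone values was not tested. The smallest p belonged to Hist1h1e, which encodes an abundant somatic H1. It measured 50.2 and 65.2 CPM in LSK Mut and 114 and 103 CPM in LSK WT, without overlap. Its log2 difference was -0.93 ± 0.26 with an edgeR adjusted p of 0.132, and spike-in scaling turned its sign (0.22). In MPP it lay below WT under both scalings, at 54.5 and 44.1 CPM in Mut and 71.7 and 88.3 CPM in WT, with a log2 difference of -0.70 ± 0.22 (edgeR adjusted p = 0.371). With DESeq2, Hist1h1e, Hist2h2be and Hist1h4c passed in LSK Mut against WT, 3 members in all. edgeR called 2 members without LSK WT replicate 1 and 4 without LSK WT replicate 2.

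For LSK KO against Mut, edgeR called 0 of 54 members, with 0.0607% of all genes called, 1 member at an unadjusted p below 0.05 (4.24% of all genes) and 0 called by DESeq2. A total of 37 members lay below 0, with a median of -0.37, and both KO libraries lay below both Mut libraries in 22 members (40.7%, against 21.5% of all genes). H2B held 9 of these 22, and 15 of its 16 tested members had a negative difference. Hist3h2ba again had the smallest p, with 18 and 7 counts in KO and 225 and 187 counts in Mut (0.994 and 0.503 CPM, and 12.6 and 10.1 CPM). Its log2 difference was -3.90 ± 0.96, and its edgeR adjusted p was 0.692.

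In MPP the members of KO lay mostly above those of WT. edgeR called 0 of 56 members, with 0.363% of all genes called, 3 members at an unadjusted p below 0.05 (8.47% of all genes) and 0 called by DESeq2. A total of 41 members had a positive log2 difference (median 0.45). Both KO libraries lay above both WT libraries in 27 members (48.2%, against 19.9% of all genes). All 10 tested H3 genes and 10 of the 12 tested H4 genes were above 0, while 3 of the 5 tested H1 genes were below. The smallest p belonged to a gene on the other side, Hist1h2ae, at 39.9 and 41.2 CPM in KO and 64.3 and 73.0 CPM in WT (log2 difference -0.76 ± 0.22, edgeR adjusted p = 0.336). Beside this, 20 of 22 listed S phase genes were also above 0 with a median of 0.12, of which Rrm2, a subunit of ribonucleotide reductase, passed (log2 difference 0.60 ± 0.09, edgeR adjusted p = 0.0336). The erythroblast genes summed to 423 and 378 CPM in MPP KO and 127 and 131 CPM in MPP WT. The part of these genes and cells in the histone values was not tested.

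In MPP Mut against WT, edgeR called 0 of 56 members, with 0.224% of all genes called and 7 members at an unadjusted p below 0.05 (12.5% of those tested, against 9.75% of all genes). By TMM 32 members were above 0 and 24 below, with a median of 0.17, while spike-in scaling put 40 below. Both Mut libraries lay above both WT libraries in 18 members (32.1%, against 19.8% of all genes) and below in 15 (26.8%, against 19.4%). By TMM the members leaned by class: 11 of 16 H2B and 9 of 12 H4 members were above 0, and 8 of 13 H2A and 4 of 5 H1 members below. Of all genes, 49.6% were above 0. The MPP differences in the H2A and H2B sums rest in large part on Hist1h2ad, Hist1h2ae and Hist1h2bc, whose values follow. Hist1h2ad had the smallest p, at 8.27 and 5.20 CPM in Mut and 21.8 and 22.5 CPM in WT. Its log2 difference was -1.72 ± 0.39 with an edgeR adjusted p of 0.203, and 40.7% of its windows were unique. Hist1h2bc, the H2B gene with the highest level per kilobase, measured 66.04 and 69.4 CPM in Mut and 36.6 and 36.9 CPM in WT (log2 difference 0.88 ± 0.21, edgeR adjusted p = 0.221). In LSK it lay the same way, at 49.99 and 60.4 CPM in Mut and 41.4 and 34.4 CPM in WT (log2 difference 0.53 ± 0.31, edgeR adjusted p = 0.397). DESeq2 called 3 members in MPP Mut against WT, namely Hist1h2ad, Hist1h2ae and Hist1h2bc. Hist1h2ae measured 39.2 and 37.0 CPM in MPP Mut and 64.3 and 73.0 CPM in MPP WT, with a log2 difference of -0.85 ± 0.22 (edgeR adjusted p = 0.262), and with the same sign under spike-in scaling. Its head-to-head neighbour Hist1h2bg had 27.2 and 23.8 CPM in Mut and 17.4 and 18.5 CPM in WT, a difference of 0.51 ± 0.31 (edgeR adjusted p = 0.667) that spike-in scaling brought to -0.077. Hist1h2bc and Hist1h2bg were likewise given for Mut after their values were seen.

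Hist1h4c, also given for Mut after its values were seen, was the H4 gene with the widest difference between Mut and WT in MPP. In MPP it had 129 and 69 counts in KO, 311 and 245 counts in Mut, and 64 and 36 counts in WT. In LSK it had 79 and 60 counts in KO, 98 and 150 counts in Mut, and 6 and 8 counts in WT. KO and Mut thus lay above WT without overlap in each population. The log2 difference of Mut minus WT was 1.93 ± 0.56 in MPP and 3.38 ± 1.06 in LSK, with edgeR adjusted p of 0.329 and 0.162. By contrast Hist1h4d, the H4 gene with the highest level, measured 68.0 and 63.4 CPM in MPP Mut and 78.6 and 90.9 CPM in MPP WT.

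The MPP KO and Mut pools also differed in direction across the family. For KO against Mut, edgeR called 0 of 56 members, with 0.239% of all genes called, 4 members at an unadjusted p below 0.05 (9.48% of all genes) and 0 called by DESeq2. A total of 38 members were above 0 (median 0.27), and both KO libraries lay above both Mut libraries in 30 members (53.6%, against 20.3% of all genes). All 5 tested H1 genes and 10 of 13 H2A genes were above 0. Hist1h2ad had the smallest p, at 18.2 and 20.3 CPM in KO and 8.27 and 5.20 CPM in Mut, a log2 difference of 1.51 ± 0.39 with an edgeR adjusted p of 0.278.

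**Figure D4:**
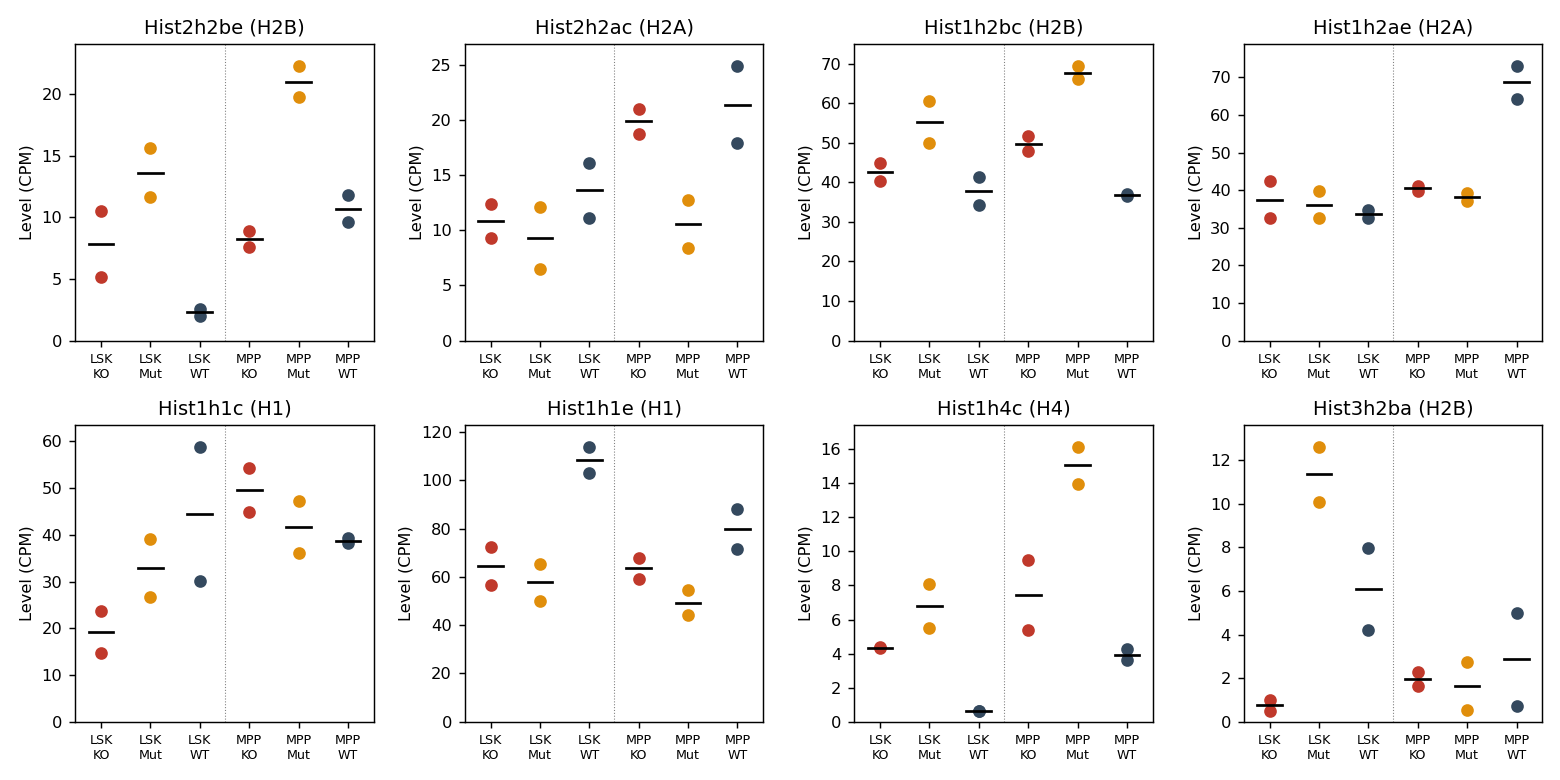
Levels in CPM of 8 members in each library (points) with means of 2 (bars), by genotype in LSK and in MPP. By TMM, Hist2h2be, Hist1h2bc and Hist1h4c lie higher in Mut than in WT in both populations and Hist1h1e lies lower (in LSK not with spike-in scaling), and Hist2h2ac in MPP goes against its neighbour Hist2h2be.

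All 4 calls on members were made between the 2 populations. LSK KO libraries had less of nearly every histone mRNA than MPP KO libraries by TMM, while scaling on the spike-ins left 0 of 56 members below 0, where the median of all genes was 4.66. With TMM, 55 of 56 members were below 0 in LSK KO against MPP KO, with a median of -0.87. Both LSK libraries lay below both MPP libraries in 44 members (78.6%, against 30.7% of all genes), and above in none (against 34.3% of all genes). edgeR called 1 member, Hist1h1c, lower in LSK, where 15.2% of all genes were called in either direction and 8.14% as lower, with 3 members at an unadjusted p below 0.05 (28.4% of all genes). This somatic H1 gene fell to 23.8 and 14.8 CPM in LSK KO, against 44.95 and 54.4 CPM in MPP KO, a log2 difference of -1.36 ± 0.40 (edgeR adjusted p = 0.0430). The call was lost with the replicate number as a block (edgeR adjusted p = 0.0560) and in 10 of the 12 fits without 1 library, while 2 members were called without both LSK WT libraries. The class medians ran from -0.44 in H1 to -1.40 in H2B.

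In WT the same contrast gave 3 calls, all lower in LSK by TMM, where edgeR called 24.0% of all genes and 13.7% as lower. A total of 7 members had an unadjusted p below 0.05 (37.1% of all genes). With spike-in scaling the 3 called members were positive, at 1.98 (Hist2h2be), 3.15 (Hist1h2ae) and 1.57 (Hist1h4c). Each then lay below the median of all genes, which was 4.17. Hist2h2be fell to 2.00 and 2.55 CPM in LSK WT, against 11.8 and 9.60 CPM in MPP WT (log2 difference -2.23 ± 0.58, edgeR adjusted p = 0.0178). Hist1h2ae fell to 34.7 and 32.5 CPM in LSK WT, against 64.3 and 73.0 CPM in MPP WT (log2 difference -1.03 ± 0.27, edgeR adjusted p = 0.0192). Hist1h4c fell to 0.633 and 0.638 CPM in LSK WT, against 4.26 and 3.60 CPM in MPP WT (log2 difference -2.61 ± 0.74, edgeR adjusted p = 0.0248). Each of these calls rests on the divergent LSK WT libraries, and each was lost when either MPP WT library was left out, which left 0 calls. Without LSK WT replicate 1, edgeR called 9 members. The call on Hist1h4c, with 6 and 8 counts in LSK WT, was also lost without LSK WT replicate 2 and without the filter on low counts (edgeR adjusted p = 0.0732). Of the 56 members, 35 were below 0 with a median of -0.40, and 24 had both LSK libraries below both MPP libraries (42.9%, against 30.7% of all genes).

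In Mut, edgeR called 0 of 56 members between LSK and MPP, with 8.76% of all genes called, 1 member at an unadjusted p below 0.05 (23.4% of all genes) and 0 called by DESeq2. A total of 45 were below 0 with TMM (median -0.36) and 0 with spike-in scaling, where the median of all genes was 5.88. Both LSK libraries lay below both MPP libraries in 25 members (44.6%, against 27.6% of all genes). Hist3h2ba, the member with the smallest p, ran the other way, at 12.6 and 10.1 CPM in LSK Mut and 0.539 and 2.76 CPM in MPP Mut (log2 difference 2.78 ± 1.18, edgeR adjusted p = 0.183). Over the 610 tests of members in all 11 comparisons, the 4 calls named here were the only ones with edgeR.

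**Figure D5:**
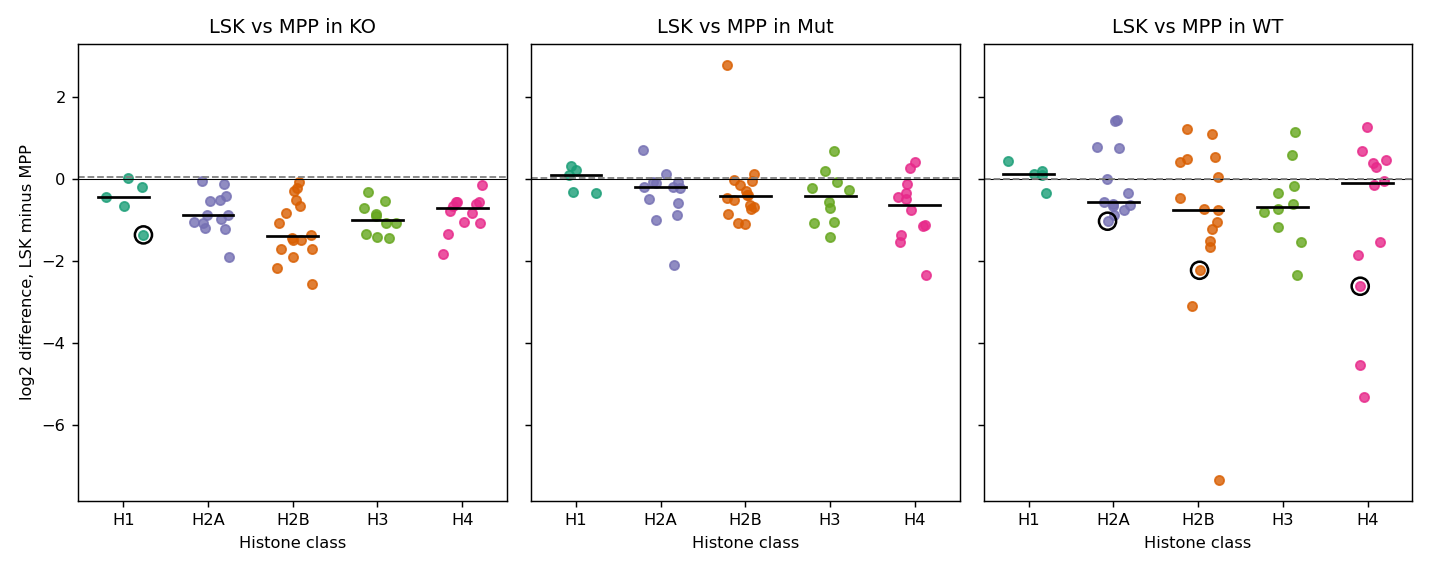
Log2 difference LSK minus MPP of each tested member (points), by class, in KO, Mut and WT; bars are class medians, the dashed line is the median of all genes, and circles mark the 4 members called by edgeR at an adjusted p below 0.05. In KO 55 of 56 points lie below 0, in Mut 45 and in WT 35, on TMM-scaled libraries.

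The genes that accompany replication also differed between the populations, by TMM. Of 22 S phase genes, 13 were called lower in LSK than in MPP in KO, 5 in Mut and 13 in WT, and of 18 genes of mitosis 9, 1 and 10 were called lower, where 8.14%, 5.21% and 13.7% of all genes were. Called higher in LSK were the S phase gene Pola1 in Mut and in WT, and the mitosis genes Cenpf and Top2a in WT. Among 21 genes of histone mRNA synthesis, processing and decay, 3 were called lower and 1, Zcchc11, higher in KO. Called higher were also Zcchc11 in Mut, and Zcchc11 and Srrt in WT, and called lower were Ccne1 in Mut, and Slbp and Ccne1 in WT. Slbp, the stem-loop binding protein, fell to 156 CPM in LSK KO, against 318 CPM in MPP KO (log2 difference -1.03 ± 0.18, edgeR adjusted p = 0.00276). Ccne1, the cyclin that drives entry into S phase and the phosphorylation of Npat, fell to 15.03 CPM in LSK KO, against 146 CPM in MPP KO (log2 difference -3.27 ± 0.62, edgeR adjusted p = 0.00509). Npat, the coactivator of histone genes, measured 59.6 CPM in LSK KO and 53.4 CPM in MPP KO and did not pass (edgeR adjusted p = 0.904). Of 18 chaperone and assembly genes, 2 were called higher in LSK in KO, Atrx and Nap1l1, and 3 lower, among them Asf1b, an H3-H4 chaperone, at 31.0 CPM in LSK KO and 138 CPM in MPP KO (log2 difference -2.16 ± 0.23, edgeR adjusted p = 1.1e-04). The part of cell cycle state in the histone differences was not tested.

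Of the 11 replication-independent variants, H1f0, Cenpa, H1fx and H2afy2 had a mean level per kilobase below that of the highest replication-dependent member, and the others were above it. H3f3b, which encodes H3.3, averaged 729 CPM per kb over the 12 libraries and H2afy, a macroH2A gene, 337 CPM per kb, beside 62.2 CPM per kb for the highest replication-dependent member. That member, Hist1h4d, has a stem-loop and 770 annotated bases past it, which count in its length. As the priming is not given, these values do not compare amounts of polyadenylated and stem-loop mRNAs. H2afy was higher in LSK by TMM, with 3071 CPM in LSK KO and 1391 CPM in MPP KO (log2 difference 1.14 ± 0.15, edgeR adjusted p = 5.3e-04). Cenpa, the centromeric H3, was called lower in LSK in all 3 genotypes by TMM. Of the variants, H3f3b alone was called between genotypes, at 2372 CPM in MPP Mut and 1865 CPM in MPP WT (log2 difference 0.34 ± 0.04, edgeR adjusted p = 0.0263). In LSK Mut against WT, edgeR called 4 chaperone genes: 2 higher, Rbbp7 and Mcm2 (log2 differences 0.81 ± 0.11 and 0.96 ± 0.15), and 2 lower, among them Atrx (-0.77 ± 0.12). Their part in the histone values was not tested.

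Interaction terms compared each genotype's departure from WT between the populations, with LSK on top. For KO, edgeR called 0 of 56 members, with 0.727% of all genes called, 5 members at an unadjusted p below 0.05 (12.4% of all genes) and 0 called by DESeq2. A total of 40 members were below 0, with a median of -0.56. Hist1h1c had the smallest p: KO minus WT was -1.23 in LSK and 0.35 in MPP, and the difference of these effects was -1.56 ± 0.56 (edgeR adjusted p = 0.277). For Mut, edgeR called 0 of 56 members, with 2.53% of all genes called, 3 members at an unadjusted p below 0.05 (17.0% of all genes) and 0 called by DESeq2. By TMM 26 members lay below 0, and 3 with spike-in scaling, where the median of all genes was 1.74. Hist4h4, the only member on chromosome 6, had the smallest p. It measured 5.32 and 6.59 CPM in LSK Mut and 15.7 and 15.9 CPM in LSK WT, and 9.26 and 10.8 CPM in MPP Mut and 4.59 and 8.50 CPM in MPP WT. The difference of effects was -2.03 ± 0.77, with an edgeR adjusted p of 0.213. Without LSK WT replicate 1, edgeR called 2 members in each of these interactions, and 1 in each without LSK WT replicate 2.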

How the data were processed

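The authors deposited 1 table of read counts per population, with genes named by symbol and spike-in controls as extra rows, and the counts were used as deposited. The submitters' processing notes name Trim Galore 0.4.1, TopHat2 2.0.13, HTSeq 0.6.1, Cufflinks and the build mm10, and the labels describe amplified RNA. The annotation, the strand setting and the priming are not given in the sources used here, so antisense and overlapping genes may share counts. Every column of counts was used (0 left out). 1 MPP column carries another number in its name than the title of its library.

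Counts were tested with edgeR 4.0.16 (quasi-likelihood test, TMM scaling, genes kept with a minimum count of 10 and a total of 15) in R 4.3.3, with Benjamini-Hochberg adjustment over all genes and a threshold of 0.05. The 6 libraries of a population shared 1 estimate of spread, and all 12 did so for LSK against MPP and for interactions (13170, 12947 and 14033 genes tested in LSK, MPP and both). DESeq2 1.42.0, its size factors, spike-in scaling, no filter, a replicate block, the spread of the compared groups alone and leaving out libraries were the alternatives. The fits of Mut against WT were also run on simulated counts with the same spread in every gene and group. Such counts do not cover the wider spread of the LSK WT libraries. Intervals between technical libraries cover library and counting error only. Positions, exon lengths, stem-loops and shared windows came from GENCODE M21 and promoters from RefSeq. Tables were joined in Python 3.11.15 with pandas 2.3.3 and drawn with matplotlib 3.10.9.

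Named members were the 2 highest per kilobase in each class, any member called by edgeR and the member with the smallest p in each comparison, besides those said to be given after their values were seen. Of the other lists up to 3 called genes a comparison were named with values. Npat was given for its role, and genes called against the direction of their list were named after their values were seen. The members and lists were chosen with earlier results of these data known.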

Additional observations from a re-analysis of the deposited data

Results flagged for a closer look

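The sums of the family, of H3 and of H4 lay on opposite sides of WT in KO libraries of the 2 populations by TMM. Spike-in scaling put the mean of LSK KO above that of LSK WT as well (2664 and 2546 for all members, 165 and 143 for H3, 619 and 531 for H4). For all members the KO and WT libraries overlapped on that scale in LSK and in MPP. The log2 ratio of mean summed CPM, KO over WT, was -0.40 in LSK and 0.14 in MPP for all members, -0.28 in LSK and 0.37 in MPP for H3, and -0.26 in LSK and 0.17 in MPP for H4. In each case, by TMM, every KO library moved 1 way in LSK and the other way in MPP. The difference between the populations was not tested for these sums, and the LSK values rest on the 2 divergent LSK WT libraries.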

How the results depend on the processing

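The counts of members called by edgeR were few and moved with the settings. Shares of all genes called are given for the main fits only, so calls under other settings are not set beside such a share. DESeq2 called 1 member in LSK KO against WT, 3 in LSK Mut against WT, 3 in MPP Mut against WT, 3 in LSK against MPP in KO and 7 in WT. With the spread of the compared groups only, 2 were called in LSK against MPP in KO and 0 in WT. Without both LSK WT libraries, an alternative chosen after seeing the data, 2 were called in KO. Within a population, same-numbered libraries of different genotypes did not deviate together (correlations from -0.0543 to 0.0445). Same-numbered libraries of LSK and MPP were not compared in this way, so a pairing between the populations was not tested. The replicate block gave 0 calls for LSK against MPP in KO and changed no other count of calls. Without 1 library, called members ran from 0 to 4 in LSK KO against WT (4 without LSK WT replicate 1), 0 to 4 in LSK Mut against WT (4 without LSK WT replicate 2), 0 to 2 in LSK against MPP in KO, 0 to 9 in WT (9 without LSK WT replicate 1, 0 without either MPP WT library) and 0 to 2 for both interactions.

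Spike-in scaling called 3 members in LSK Mut against WT, 5 in MPP Mut against WT, 7 in MPP KO against Mut, 41, 53 and 44 in LSK against MPP in KO, Mut and WT, and 4 for the Mut interaction. The median log2 difference of all genes was then 1.10 in LSK Mut against WT, -0.59 in MPP Mut against WT and 0.65 in MPP KO against Mut. It was 4.66, 5.88 and 4.17 in LSK against MPP in KO, Mut and WT, and 1.74 for the Mut interaction. Members below 0 then numbered 21 in LSK KO against WT, 8 in LSK Mut against WT, 40 in MPP Mut against WT, 4 in MPP KO against Mut, 0, 0 and 3 in LSK against MPP in KO, Mut and WT, and 3 for the Mut interaction. Spike-in scaling reversed Hist1h1e (0.22) and Hist2h2ac (0.66) in LSK Mut against WT, Hist1h2bg (-0.077) in MPP Mut against WT, Hist1h1c (3.23) in LSK against MPP in KO, and Hist2h2be (1.98), Hist1h2ae (3.15) and Hist1h4c (1.57) in WT. Hist1h2ae in LSK Mut against WT reversed to -0.065 without LSK Mut replicate 2. Summed histone CPM in LSK KO, Mut and WT and MPP KO, Mut and WT were 2664, 4743, 2546, 164, 92.7 and 143 with spike-in scaling, and 384, 436, 499.5, 546, 504 and 528 over members with mostly unique windows. Without 1 library the sums ran from 449 to 552, 532 to 622, 604 to 719, 732 to 772, 648 to 684 and 655 to 709. The causes were not tested.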
